A study of Drosophila melanogaster with 3 samples.

Results

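The Jonah and trypsin genes of *Drosophila melanogaster* encode serine proteases of the larval midgut. They were selected by FlyBase symbol, as every gene whose symbol begins with *Jon* and a digit or consists of a Greek letter name and *Try*. The rule found 27 of the 17896 genes in the deposited table, of which 16 were Jonah genes and 11 were trypsin genes. Transcripts were measured by RNA-seq in whole larvae homozygous for *CycC Y5*, at the wandering stage of the last larval instar. The allele removes cyclin C, a partner of the Mediator kinase Cdk8, and its chromosome also carries FRT82B. Each of the 3 libraries was made from total RNA of 10 pooled larvae, and their sexes are not given in the labels. Homozygotes are pupal lethal, and the study attributes their survival as larvae to CycC from the mother. Libraries of the w1118 control and of *Cdk8 K185* larvae were not analysed here. The values below are therefore levels within *CycC Y5* larvae and differences between pools of one genotype, not effects of the mutation.

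Jonah proteins and trypsins belong to the chymotrypsin fold, in which a histidine, an aspartate and a serine form the catalytic triad. They are made by midgut enterocytes, secreted as inactive precursors and cut to the active form in the gut lumen, where they digest dietary protein. Trypsins cleave after lysine or arginine, whereas Jonah proteins resemble chymotrypsins and elastases. Both families arose by tandem duplication. The number and letter in a Jonah name give the band of the polytene chromosome where the gene lies, so *Jon65Ai* and *Jon65Aiv* lie in the same cluster.

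*CycC* had 0 counts in each library, and whether the allele or the counting gave this 0 was not tested. The gene table held 10198047, 10157528 and 12125243 counts in libraries 1, 2 and 3. CPM are counts scaled to these totals, and CPM per kb are CPM divided by the listed length of the gene, which is its span. Levels of single genes are compared with each other per kb unless stated otherwise. Shares, sums and ratios of gene groups take no account of length unless stated otherwise. For differences between libraries the totals were replaced by TMM library sizes (edgeR's trimmed mean of M values, with factors of 1.05, 1.07 and 0.892), and these values are called scaled CPM. This choice matters, because across 10117 genes tested library 3 stood at a median log2 ratio to the other libraries (their mean) of -0.26 on totals and -0.01 on TMM library sizes. The 20 most counted genes, which include *Jon65Aiv*, *Jon65Aiii* and *Jon25Biii*, took 19.8%, 19.2% and 25.1% of the counts. Nothing in the labels says whether the libraries differ in collection or sequencing date. In whole larvae, fewer midgut cells and less RNA per cell cannot be told apart.

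Jonah and trypsin transcripts were among the most abundant in these larvae. All 27 genes together took 4.15%, 3.79% and 4.45% of the counts in libraries 1, 2 and 3. The 95% Wilson intervals ran from 4.13% to 4.16%, from 3.77% to 3.80% and from 4.44% to 4.46%, so the shares were apart by more than counting error, which is all these intervals cover. The mean share was 4.13% ± 0.334 (SD, n = 3), of which Jonah genes made up 85.1% ± 2.76 (SD, n = 3). Ranked by CPM per kb of span, 12 of the 27 genes were among the 100 highest of the table. Per kb of exon, which does not favour genes with short introns or none, 10 were. Most are short and compact: 22 of 27 are annotated as 1 exon, 4 as 2 exons and *Jon74E* as 3.

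*Jon65Aiv* was the most abundant member and ranked 2 in the whole table per kb. It was counted at 11370, 10442 and 11362 CPM per kb in the 3 libraries, on average 11058 ± 534 (SD, n = 3). *Jon65Aiii*, from the same cluster, had 6391, 5747 and 6193 CPM per kb. The pair made up 47.3% ± 3.67 (SD, n = 3) of all Jonah counts. On this scale the libraries lay close together, with library 2 lowest in both genes.

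*Jon25Biii* followed at 5438, 4502 and 8019 CPM per kb, and *Jon66Ci* at 2778, 3239 and 4673 CPM per kb. Both were highest in library 3. *Jon99Cii* had 3470, 3098 and 2997 CPM per kb, and *Jon99Ciii* had 2688, 2511 and 2349 CPM per kb. The coding sequences of the last pair are equally long, at 795 bp, and both genes encode closely related proteins, so reads of one may have been counted on the other.

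Among trypsins, *alphaTry*, *epsilonTry* and *betaTry* carried almost the whole signal, at 92.6% ± 1.19 (SD, n = 3) of the trypsin counts. *alphaTry* had 3355, 2911 and 2151 CPM per kb, *epsilonTry* had 2195, 1969 and 2017 CPM per kb, and *betaTry* had 1650, 1503 and 1177 CPM per kb. *alphaTry* and *betaTry* were lowest in library 3, the library in which *Jon25Biii* and *Jon66Ci* were highest. The other trypsins were far less abundant. *thetaTry* had a mean of 163 ± 20.2 CPM per kb (SD, n = 3), *iotaTry* of 71.1 ± 4.06, *etaTry* of 48.5 ± 3.25, *zetaTry* of 35.3 ± 4.68, *kappaTry* of 23.6 ± 9.07 and *lambdaTry* of 3.92 ± 2.61. *deltaTry* had 137, 124 and 165 CPM per kb.

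The remaining Jonah genes covered a similarly wide range. *Jon25Bii* had a mean of 1400 ± 406 CPM per kb (SD, n = 3), *Jon25Bi* of 901 ± 546, *Jon99Fii* of 804 ± 141, *Jon99Fi* of 662 ± 129 and *Jon99Ci* of 572 ± 104. Lower still were *Jon65Aii* at 280 ± 15.5, *Jon66Cii* at 274 ± 185, *Jon65Ai* at 240 ± 55.9, *Jon44E* at 105 ± 18.6 and *Jon74E* at 13.6 ± 3.47. *Jon66Cii* and *Jon25Bi* had the widest spread among Jonah genes relative to their means. *Jon44E* shares 49 bp of its span with *CG8586* and *deltaTry* shares 15 bp with *CG13202*, whereas the other 25 members overlap no gene of the table.

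**Figure D1:**
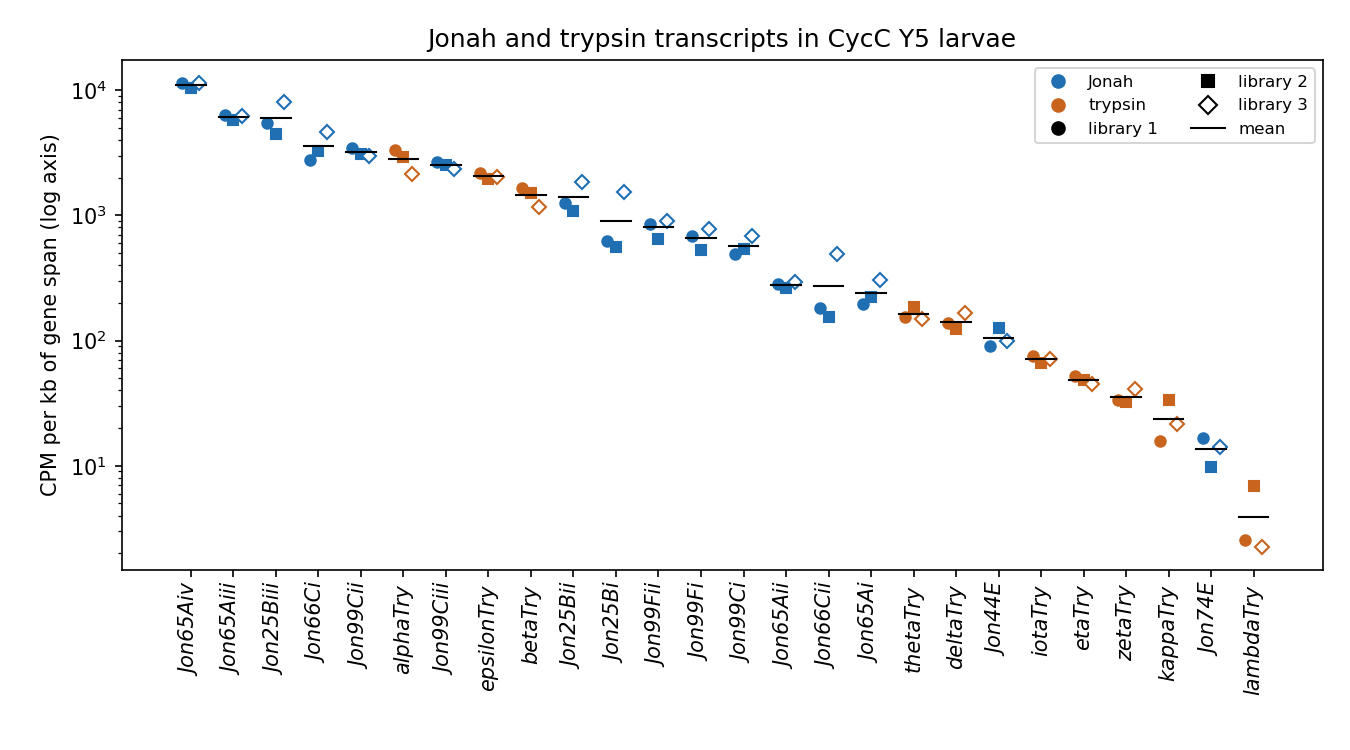
CPM per kb of gene span (log axis) of the 26 members with at least 30 counts over the libraries, ordered by their mean. Symbols are single libraries and bars their mean. Values run from 11058 CPM per kb for *Jon65Aiv* to 3.92 for *lambdaTry*, and the open diamonds of library 3 stand above the rest at *Jon25Biii*, *Jon66Ci*, *Jon25Bi* and *Jon66Cii*.

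The order of levels was firm in its broad steps and loose between many neighbours. Of 25 pairs of members next to each other in the order, 12 kept the same order in every library and were apart by more than 1 SD of their log2 ratio. The order was set by the means of these same libraries, which favours such agreement, so the counts and p-values below are descriptive. *Jon65Aiv* exceeded *Jon65Aiii* by a log2 ratio of 0.86 ± 0.02 (SD, n = 3) per kb, *Jon99Ciii* exceeded *epsilonTry* by 0.29 ± 0.07 and *Jon99Ci* exceeded *Jon65Aii* by 1.01 ± 0.22. Each held in 3 of 3 libraries (p = 0.25 in a two-sided exact permutation test that flips signs, which is the least that 3 libraries can give, and adjusted p = 0.48 by Benjamini-Hochberg for 25 pairs). The other 13 pairs could not be separated, among them *Jon65Aiii* and *Jon25Biii*, with a log2 ratio of 0.07 ± 0.39 (SD, n = 3), and *betaTry* and *Jon25Bii*, with 0.07 ± 0.63 (exact p = 1 for both). No pair can pass a threshold of 0.05 with 3 libraries.

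Levels varied strongly within clusters. The 11 trypsin genes lie in a single cluster of 20698 bp on chromosome 2R of BDGP6 (11336840 to 11357537). The abundant *alphaTry*, *epsilonTry* and *betaTry* stand side by side in its middle, with 117 bp between *alphaTry* and *epsilonTry* and 258 bp between *epsilonTry* and *betaTry*. *thetaTry*, 1499 bp from *alphaTry*, was lower than it by a log2 ratio of -4.09 ± 0.31 (SD, n = 3) per kb. From *thetaTry* to *lambdaTry* at the edge of the cluster, the mean level was lower with each gene.

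On the other side of *betaTry* the table lists *gammaTry*, *CG30031* and *CG30025* with almost no counts. *gammaTry* (FBgn0010359, 11349061 to 11349870) had 0, 0 and 1 counts, *CG30025* had 0, 0 and 1 counts and *CG30031* had 0 in every library. *CG30031* and *CG30025* are no members by symbol and are named for their position. *deltaTry* (FBgn0010358, 11355319 to 11356128), whose coding sequence is as long as that of *gammaTry* at 759 bp, had 1131, 1018 and 1620 counts. A count of 0 allows up to 3 counts, or 0.294, 0.295 and 0.247 CPM in libraries 1, 2 and 3, for counting error only. *gammaTry* and *deltaTry* are near-identical copies, and the counting of reads with several matches is not given in the sources used here. The levels of *gammaTry* and *deltaTry* are thus uncertain, and the values near 0 do not show that *gammaTry* was silent. None of these genes lies inside the span of another gene.

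Jonah clusters showed similar steps. The *Jon65A* cluster spans 15289 bp on chromosome 3L (6039155 to 6054443). There *Jon65Aiii* exceeded *Jon65Aii*, 630 bp away on the same strand, by a log2 ratio of 4.45 ± 0.05 (SD, n = 3) per kb. *Jon66Ci* and *Jon66Cii*, on chromosome 3L from 8391540 to 8393649, face each other across 442 bp and differed by 3.87 ± 0.57. In the *Jon25B* cluster on chromosome 2L (4949941 to 4955144), *Jon25Biii* exceeded *Jon25Bii* by 2.09 ± 0.04 and *Jon25Bii* exceeded *Jon25Bi* by 0.76 ± 0.41. The ratio of *Jon25Biii* to *Jon25Bii* hardly moved between libraries, at 2.12, 2.05 and 2.11. That of *Jon25Bii* to *Jon25Bi* was 1.02, 0.97 and 0.28, so *Jon25Bi* stood apart from both neighbours in library 3. On chromosome 3R, *Jon99Ciii* and *Jon99Cii* differed by -0.34 ± 0.03 (cluster at 29922216 to 29926189), and *Jon99Fii* and *Jon99Fi* by 0.28 ± 0.06 (cluster at 30487016 to 30489895). Both pairs are close copies with coding sequences of equal length, 795 bp and 801 bp. The sign for *Jon99Ciii* and *Jon99Cii* depends on length, as their spans are 1240 bp and 862 bp. Without length *Jon99Ciii* was the higher in each library, at 33985, 31633 and 35313 counts against 30503, 27128 and 31328. Ratios within a library need no scaling between libraries.

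**Figure D2:**
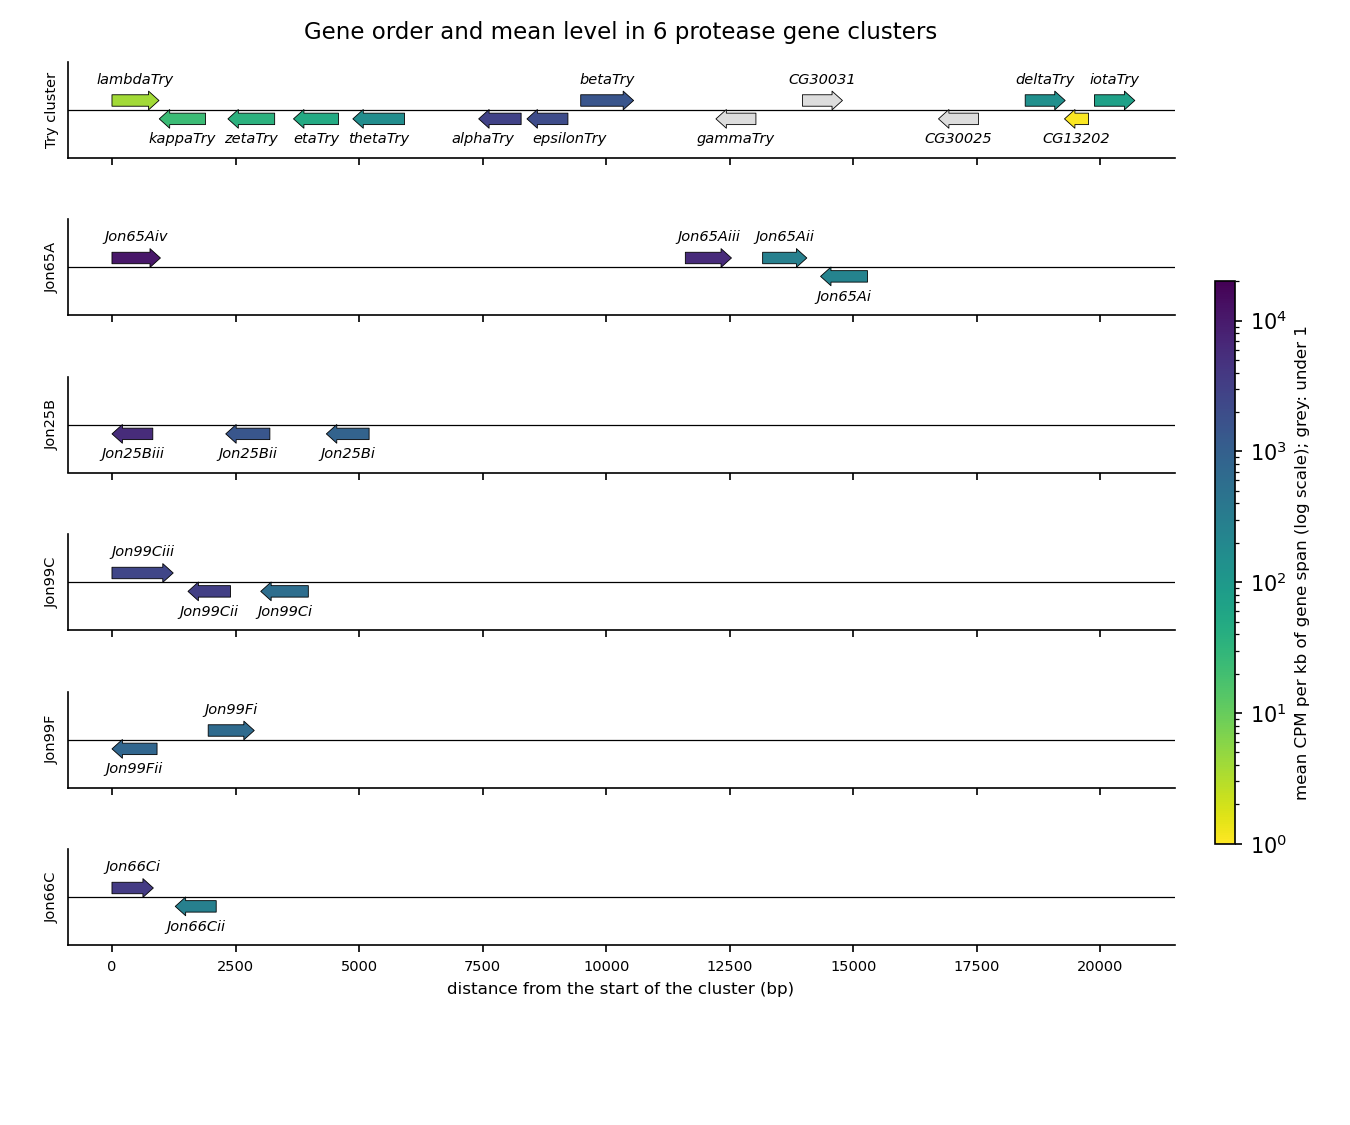
Gene order in the trypsin cluster and in the 5 Jonah clusters with more than 1 gene, by distance in bp from the start of each cluster. Arrows point in the direction of transcription and are drawn to scale, with genes of the plus strand above the line, and their colour gives the mean CPM per kb of gene span (log scale, grey under 1). The darkest trypsin arrows are the adjacent *alphaTry*, *epsilonTry* and *betaTry*, and the grey arrows are *gammaTry*, *CG30031* and *CG30025*.

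Most members differed between the 3 pools by more than counting noise, and on TMM library sizes most were highest in library 3. Of 26 members tested, 25 varied, against 39.7% of the 10117 genes with a summed count of at least 30 (chi-square test of homogeneity with TMM sizes, Benjamini-Hochberg adjustment, threshold 0.05). *gammaTry* was below the minimum, and *etaTry* (adjusted p = 0.30) was the member that did not pass. This test compares libraries and not conditions. It reaches smaller differences at higher counts, and all 20 members with a summed count of at least 3000 passed, as did 77.5% of the 1881 genes at that depth. Of the 26 members, 18 varied and were highest in library 3, against 18.2% of all genes tested. At the higher depth the numbers were 16 of 20 members and 40.2% of genes. On library totals 24 members varied (background 59.6%), and 12 of 26 varied and were highest in library 3 (background 8.02%). At the higher depth all 20 varied on totals (background 92.2%), and 11 of them were highest in library 3 (background 17.9%). *Jon65Aiv*, *Jon65Aiii*, *Jon99Cii*, *Jon99Ciii*, *epsilonTry*, *iotaTry* and *etaTry* were highest in library 3 on TMM library sizes but not on totals. Varying with the highest value in library 2 were 4 members (background 10.2%) and in library 1 another 3 (background 11.3%).

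For Jonah genes the direction was uniform. All 16 varied in the chi-square test (background 39.7%, or 77.5% at a summed count of at least 3000, largest adjusted p = 1.8e-05, for *Jon74E*). All 16 had a scaled CPM in library 3 above the mean of the other libraries, as did 47.5% of all genes tested and 54.8% of those with high counts. The median log2 ratio of Jonah genes was 0.57 (sums with the *Jon25B* and *Jon66C* genes left out: 24747, 22066 and 28429 scaled CPM). The same median was -0.01 over all genes tested and 0.03 over the 1881 genes with high counts. On library totals 13 of 16 remained higher, with a median of 0.32, and *Jon99Cii*, *Jon99Ciii* and *Jon44E* changed sign. The median on totals was -0.26 over all genes tested and -0.22 over those with high counts. *Jon66Cii* differed most. It had 143, 119 and 453 scaled CPM in libraries 1, 2 and 3, a log2 ratio of 1.79 for library 3 against the others. *Jon25Bi* had 512, 448 and 1486 scaled CPM, a log2 ratio of 1.63. In both genes library 3 stood far above a close pair.

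The rest of the *Jon25B* and *Jon66C* clusters followed in the same direction. *Jon25Biii* had 4294, 3477 and 7437 scaled CPM and *Jon25Bii* had 1070, 909 and 1864, with log2 ratios of 0.94 and 0.91. *Jon66Ci* had 2222, 2535 and 4391 scaled CPM, a log2 ratio of 0.88. Somewhat smaller differences were seen for *Jon65Ai* (0.78), *Jon99Ci* (0.67), *Jon99Fi* (0.62) and *Jon99Fii* (0.52), whereas the abundant *Jon65Aiv* and *Jon65Aiii* reached only 0.31 and 0.28. *Jon99Cii* and *Jon99Ciii* were nearly level, at 0.12 and 0.10. *Jon44E* had 122, 165 and 154 scaled CPM, with library 1 alone low, and *Jon74E* had 16.8, 9.65 and 16.7, with library 2 alone low.

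Among trypsins the direction was not uniform. *alphaTry* had 2755, 2338 and 2075 scaled CPM in libraries 1, 2 and 3, a log2 ratio of -0.30 for library 3 against the others (adjusted p = 1.9e-228, chi-square test with Benjamini-Hochberg adjustment over all genes tested). *betaTry* had 1688, 1503 and 1413, a log2 ratio of -0.17 (adjusted p = 9.3e-59). *epsilonTry*, which lies between them, had 1740, 1526 and 1878, a log2 ratio of 0.20 (adjusted p = 2.0e-85). On TMM library sizes the adjacent genes differed in which library was highest, whereas on totals all 3 were highest in library 1. Library 3 was above the mean of the others in 7 of 10 trypsins tested (47.5% of all genes tested), with a median log2 ratio of 0.08. On library totals this was so for 3 of 10, with a median of -0.17 (-0.26 over all genes tested), so the direction of the family depends on the scaling.

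The low trypsins were split as well. *deltaTry* (log2 ratio 0.59 for library 3), *zetaTry* (0.57) and *iotaTry* (0.27) were highest in library 3. *kappaTry* had 14.2, 29.4 and 22.5 scaled CPM and *lambdaTry* had 2.34, 6.16 and 2.40. Both were highest in library 2, by a log2 ratio to the other libraries of 0.68 and 1.38 (adjusted p = 5.3e-12 and 4.0e-06). *lambdaTry* rests on 25, 67 and 26 counts. The 2 genes are neighbours on opposite strands, with 5 bp between their spans.

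**Figure D3:**
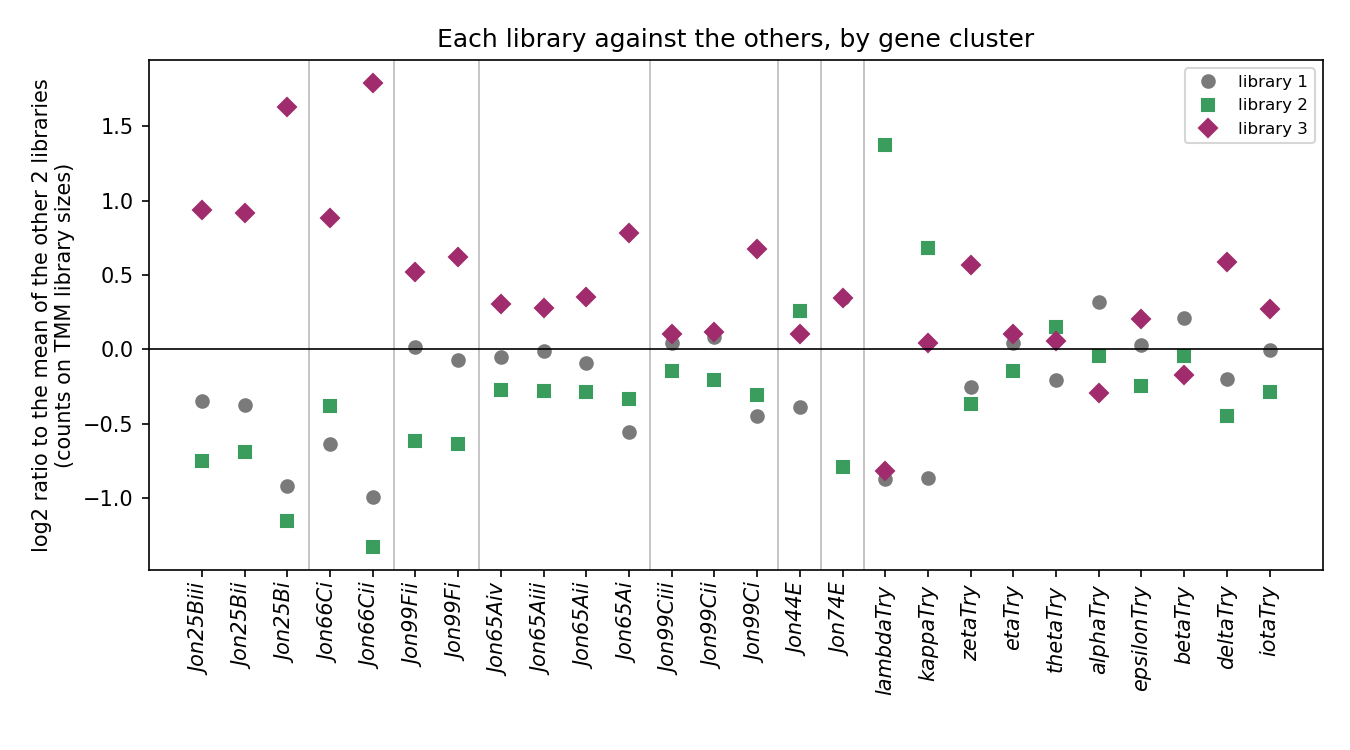
Log2 ratio of the scaled CPM of each library to the mean of the other 2 libraries, for 26 members grouped by cluster (grey lines) and in chromosomal order within it. Library 3 lies above 0 for all 16 Jonah genes (47.5% of all genes tested, and 13 Jonah genes on library totals), up to 1.79 for *Jon66Cii*. It lies below 0 for *alphaTry*, *betaTry* and *lambdaTry*.

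The balance of both families shifted accordingly. Jonah genes summed to 32988, 29554 and 44060 scaled CPM in libraries 1, 2 and 3, and trypsins to 6592, 5799 and 5870. The log2 ratio of Jonah to trypsin counts within a library was 2.32, 2.35 and 2.91, a mean of 2.53 ± 0.33 (SD, n = 3). Libraries 1 and 2 differed little, and library 3 stood 0.57 above their mean. The mean ratio was 2.21 without the *Jon25B* genes, 2.39 without the *Jon66C* genes and 2.34 without library 3. *Jon25B* genes made up 17.8%, 16.4% and 24.5% of the Jonah counts.

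Other digestive enzymes were also highest in library 3 on TMM library sizes. The list held amylases, maltases, lysozymes and the lipase *mag*, and 12 of its 21 genes were tested. All 12 varied and were highest in library 3, with log2 ratios from 0.30 to 1.42 and a median of 0.89 (background 39.7% varying and 18.2% varying and highest in library 3). At a summed count of at least 3000, which most of them reach, these shares were 77.5% and 40.2%. On totals *Mal-A5* and *Mal-A8*, named after their values were seen, were not highest in library 3, and the other 10 were (background 8.02%, or 17.9% at that depth). The amylase genes *Amy-d* and *Amy-p*, which are near-identical copies, had 1861, 1447 and 2288 CPM and 1355, 1057 and 1764 CPM. The maltase gene *Mal-A1* had 242, 209 and 375 CPM. The 9 other genes of the list, including *mag* and most lysozymes, were listed at 0 and lie inside the span of another gene. All 14 listed genes at 0 in these and the following lists were so placed, and such a 0 is no measure of expression. Within libraries the log2 ratio of Jonah counts to counts of these enzymes was 2.95, 3.12 and 2.77, and that of trypsin counts was 0.62, 0.77 and -0.13.

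Of 6 further midgut proteases of the same fold, 5 were tested and 3 varied (background 39.7%, or 77.5% at the depth of *yip7*). *yip7*, which lies near *Jon65Aiv*, was by far the most abundant at 6749, 6792 and 7920 CPM per kb. This is above *Jon65Aiii*, and its log2 ratio for library 3 was 0.47. *Phae1* had 66.7 ± 7.11 CPM per kb and *Phae2* had 25.8 ± 0.870 CPM per kb (SD, n = 3), with log2 ratios of 0.27 and 0.22, the latter not past the threshold (adjusted p = 0.11). The 3 that varied were highest in library 3 on TMM library sizes (background 18.2%, or 40.2% at the depth of *yip7*). On totals 3 varied (background 59.6%), and of these only *yip7* was highest in library 3 (background 8.02%, or 17.9% at its depth).

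Markers of the midgut and of other tissues also differed between the pools. The midgut list summed to 792, 714 and 1435 scaled CPM in libraries 1, 2 and 3, and 3 of 5 genes tested varied (background 39.7%), each highest in library 3 (background 18.2%). *Peritrophin-15a*, a protein of the matrix that lines the midgut, had a log2 ratio of 1.04 for library 3, and *Peritrophin-A* of 0.66. Both reach a summed count of at least 3000, where 77.5% of genes varied and 40.2% varied and were highest in library 3. The midgut factor *GATAe* had 51.0, 53.1 and 46.8 CPM and did not pass the test (log2 ratio 0.09, adjusted p = 0.57). Of the 6 midgut markers, 5 were detected, and *Peritrophin-15b* was a nested gene at 0. Fat body and larval serum genes summed to 29170, 24616 and 66869 scaled CPM, and all 6 varied and were highest in library 3 (5 on totals, background 18.2% and 8.02%). At a summed count of at least 3000, which all 6 reach, these backgrounds were 40.2% and 17.9%, and 77.5% of genes varied. The log2 ratio for library 3 was 1.20 for *Lsp1beta*, 0.79 for *Fbp1* and 1.36 for *Fbp2*. Glue genes of the salivary gland summed to 6158, 2647 and 4482 scaled CPM. All 5 tested (*Sgs3*, *Sgs7* and *Sgs8* the most counted) varied (background 39.7%, or 77.5% at their depth) and had their lowest scaled CPM in library 2. On totals *Sgs5*, named after its values were seen, was instead lowest in library 3, with 348, 185 and 171 CPM. In the Malpighian tubule *Uro* had a log2 ratio of 0.89 for library 3 and *Irk3* of 0.14, of which *Uro* passed the test. The hindgut gene *byn* was a nested gene at 0. The part of tissue make-up or larval stage in the Jonah differences was not tested.

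Known regulators of midgut and digestive genes were also listed. The list held the GATA factors *GATAe* and *srp*, the TGF-beta pathway genes *daw*, *babo* and *Smox*, and the sugar sensing genes *Mondo* and *sug*. They summed to 714, 676 and 655 scaled CPM, and 4 of 7 varied (background 39.7%), with none highest in library 3 (background 18.2%). At a summed count of at least 3000, which most of them reach, these shares were 77.5% and 40.2%. With 7 genes and these shares, finding none does not set the regulators apart from other genes. *Smox* had 166 ± 19.3 CPM and *daw* 129 ± 17.6 CPM (SD, n = 3), *Mondo* had 128, 118 and 107 CPM, and of these *daw* passed the test with a log2 ratio of -0.08 for library 3. The others that passed were *babo*, *srp* and *sug*, named after their values were seen, with log2 ratios of -0.17, -0.16 and -0.59. On totals 6 of the 7 varied (background 59.6%, or 92.2% at that depth). Again none was highest in library 3 (background 8.02%, or 17.9% at that depth).

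**Figure D4:**
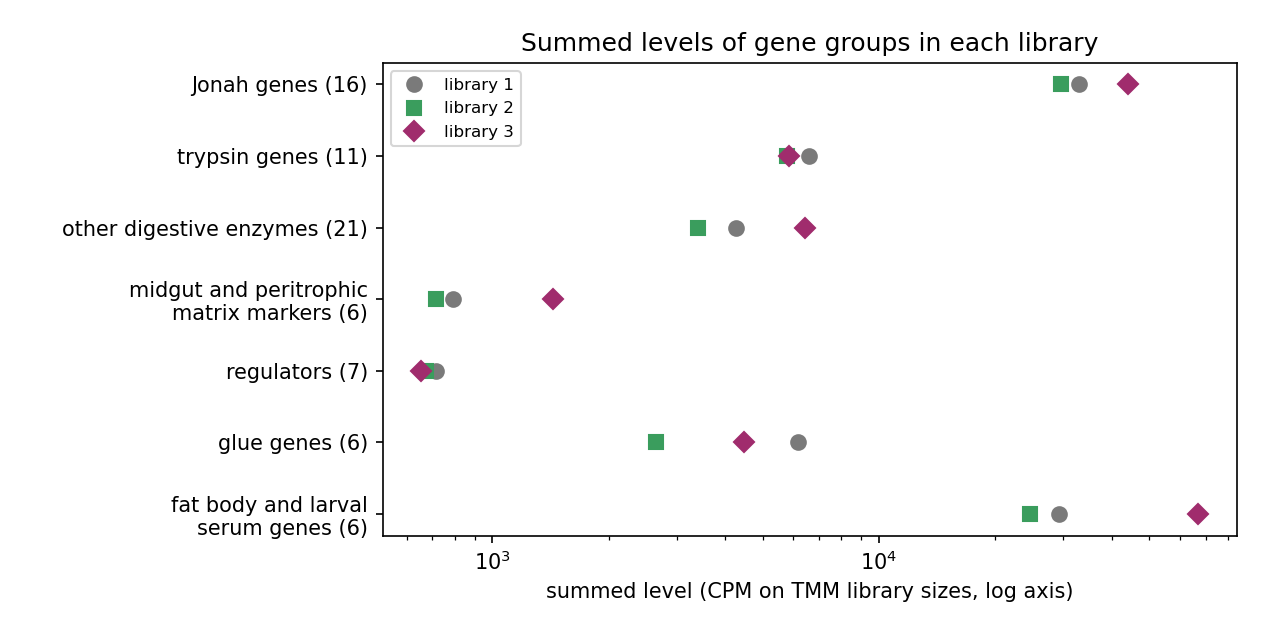
Summed scaled CPM (log axis) of each gene group in each library, with the number of listed genes in brackets. Library 3 lies to the right for Jonah genes (44060), other digestive enzymes, midgut markers and fat body genes (66869), but within or below the range of the other libraries for trypsins (5870), regulators (655) and glue genes (4482).

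The spread between pools was somewhat wider for members than for genes in general. The tagwise biological coefficient of variation (BCV) from edgeR, which leaves out counting noise, had a median of 0.200 over 26 members, 0.233 over Jonah genes and 0.179 over trypsins. It was 0.153 over all genes tested and 0.150 over the genes with a summed count of at least 3000. The BCV was above the 90th percentile of all genes tested, 0.241, for 8 of 26 members. Of the 20 members with a summed count of at least 3000, 9 were above 0.216, the 90th percentile at that depth. *Jon66Cii* had the highest, at 0.484, followed by *Jon25Bi* at 0.448 and *lambdaTry* at 0.390, and *etaTry* had the lowest, at 0.125. With the DESeq2 dispersion *Jon25Bi*, at 0.713, stood slightly above *Jon66Cii*, at 0.708. *Jon65Aiv*, the most abundant, was at 0.190. Without library 3 the median was 0.131 over members and 0.123 over all genes, and the BCV of *Jon66Cii* was 0.116 and that of *Jon25Bi* 0.131. The BCV of *lambdaTry* was 0.195 without library 2. Between libraries 1 and 2 alone, 23 of 26 members still differed, against 16.5% of genes, but only 7 were higher in library 2 (background 8.45%). Between libraries 1 and 3, 21 members differed (background 32.2%) and 19 were higher in library 3 (background 17.5%). Between libraries 2 and 3, 23 differed (background 29.8%), again with 19 higher in library 3 (background 17.6%).

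**Figure D5:**
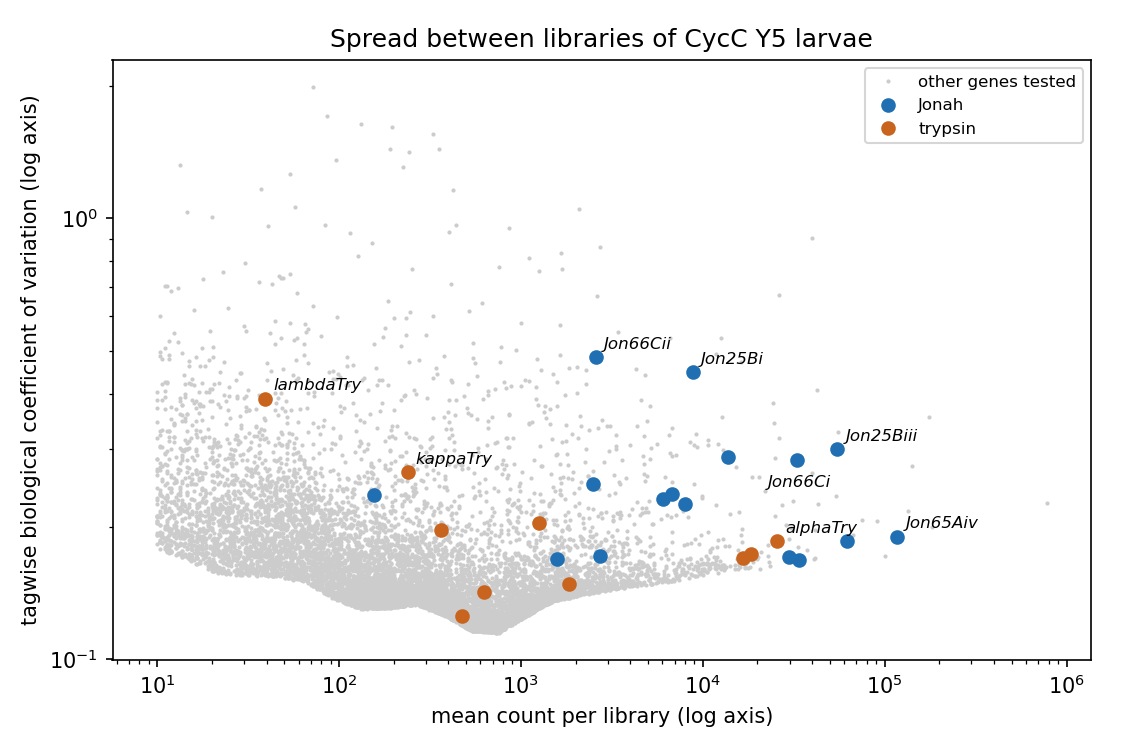
Tagwise BCV (log axis) against the mean count per library (log axis) for each gene tested, with Jonah genes in blue and trypsins in orange. *Jon66Cii* (0.484) and *Jon25Bi* (0.448) lie well above most genes of similar count, and *Jon65Aiv* (0.190) and *alphaTry* (0.185) lie lower, towards the right.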

How the data were processed

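The members and gene lists were chosen with earlier results of these data known. Total RNA of whole larvae was sequenced by the authors, and the labels name STAR and genome build dm6. The counting program, its annotation and its treatment of reads with several matches are not given in the sources used here. The deposited gene table holds raw counts, as whole numbers. The listed length is the gene span in bp, a column of another kind that the authors deposited beside the counts. The table also holds 6 further columns of values, which were used in no step, and the deposited transposon table was not used. Column names were read as the initial of the genotype and the replicate number. Symbols were found for 17865 of 17896 identifiers, and the coordinates of all 27 members equal those of BDGP6.54, from which exon and coding lengths were taken.

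CPM were computed from library totals of 10157528 to 12125243 counts. With a single genotype, no contrast between groups could be fitted, so edgeR 4.0.16 gave TMM library sizes and dispersions (intercept only). Genes with a summed count of at least 30 were tested by chi-square (SciPy 1.17.1), with Benjamini-Hochberg adjustment over all of them. Nothing says that the pools came from separate cultures, so p-values apply only to these samples. The chi-square p-values measure departure from counting error, and no spread between pools enters them. DESeq2 1.42.0 served as an alternative, in R 4.3.3. Tables were handled in pandas 2.3.3 and NumPy 2.4.6 under Python 3.11.15, and figures drawn with matplotlib 3.10.9. The steps were tested on simulated data. Named were all members and the 3 most counted genes of each list, plus those said to be chosen otherwise. The background of genes with a summed count of at least 3000, the exon lengths the ratios without single genes or clusters and the counts of genes highest in library 3 on totals were chosen after seeing the data. Sequences of promoters and proteins were not used here.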

Additional observations from a re-analysis of the deposited data

How the results depend on the processing

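No paired analysis was possible because just 1 genotype was analysed. With other scalings, filters, thresholds and the likelihood ratio test, 24 or 25 members varied, and 21 to 23 with each library left out. Over all genes tested, 4015 varied, against 6028 with library totals and 1665 without library 3. With the total without the 20 most counted genes, which is smaller in every library, the summed level was 44896 CPM for Jonah genes (main value 35161) and 7760 CPM for trypsins (main value 6116), the share was 5.27%, and 20 of 27 single levels moved by more than 1 SD. With each library left out, the sums ranged from 33096 to 36921 CPM and from 5722 to 6557 CPM, the share from 3.97% to 4.30%, the log2 ratio of Jonah to trypsin counts from 2.34 to 2.63, the number of separated neighbours from 14 to 18, and the median BCV from 0.131 (without library 3) to 0.239. The cause of the last was not tested. With a library left out, neighbours need the same order in fewer libraries to count as separated. This is easier to meet, so 14 to 18 cannot be set against the main count of 12. The ratio of Jonah to trypsin was 3.66 from the medians over members and 2.47 per kb.

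Some neighbours in the order changed places. Without length, which by construction moves the ratio of genes of unequal span, the log2 ratio was -0.39 for *alphaTry* to *Jon99Ciii*, -0.055 for *Jon25Bi* to *Jon99Fii*, -0.18 for *Jon66Cii* to *Jon65Ai* and -0.35 for *deltaTry* to *Jon44E*. With each library left out, ratios that reversed ranged from -0.070 (without library 2; -0.010 without library 1) to 0.29 for *Jon65Aiii* to *Jon25Biii*, from -0.13 (without library 2; -0.097 without library 1) to 0.43 for *betaTry* to *Jon25Bii* and from -0.041 (without library 2) to 0.71 for *Jon65Aii* to *Jon66Cii*. Without library 3 the lowest values were reached by *Jon66Ci* to *Jon99Cii* (-0.13 to 0.35), *Jon25Bi* to *Jon99Fii* (-0.34 to 0.27) and *Jon66Cii* to *Jon65Ai* (-0.32 to 0.29). All were among the 13 pairs not separated, and exon length reversed none. Depth limits *gammaTry* and *lambdaTry* most, and *Jon74E* and *kappaTry* also rest on few counts.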

Other observations

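Proteases of the same fold that act outside the gut, in the haemolymph or the embryo, were at the level of the low trypsins or below. Per kb, *grass* had 23.7 ± 0.756 CPM per kb and *Hayan* 7.99 ± 1.18 (SD, n = 3), beside 23.6 ± 9.07 for *kappaTry* and 3.92 ± 2.61 for *lambdaTry*. Of the 10 listed, 8 were tested and 2 varied, against a background of 39.7%. *grass*, a protease of the Toll pathway, had 43.4, 45.0 and 42.2 CPM in libraries 1, 2 and 3, *modSP* had 39.1, 45.2 and 31.8 CPM, and *Hayan* had 35.1, 29.4 and 26.3 CPM, and none of these passed the test. The 2 that varied were *ea* and *SPE*, named after their values were seen, with log2 ratios of 0.36 and 0.44 for library 3 against the others. On library totals 3 genes of the list varied (background 59.6%), and none of these was highest in library 3 (background 8.02%). With 8 genes tested and this share, finding none does not set the list apart from other genes.

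Genes that lie beside the Jonah clusters did not all share the direction of the cluster, and were picked among the flanking genes after their values were seen. *betaggt-I*, *jet* and *Marcal1*, which flank the *Jon25B* cluster, had log2 ratios for library 3 of 0.04, 0.14 and -0.02 and did not pass the test. *ImpE1*, an ecdysone-induced gene beside *Jon66Ci*, had 265, 570 and 149 counts, and was lowest in library 3 with a log2 ratio of -1.49. *CG8586*, which overlaps *Jon44E* by 49 bp on the opposite strand, had 749, 655 and 1360 counts and a log2 ratio of 0.95.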
